A study of Mus musculus with 5 samples.

Results

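This is an account of 10 genes of antigen presentation in 5 mouse RNA-seq libraries. They were chosen by symbol, and each matched 1 of the 20178 RefSeq transcripts in the deposited tables. The set holds 7 genes of the major histocompatibility complex (MHC) class II pathway (H2-Aa, H2-Ab1, H2-Eb1, Cd74, Ciita, H2-DMa and H2-DMb1) and 3 genes of the class I pathway (H2-K1, B2m and Tap1). All libraries were total RNA of cells at passage 2 from ICR mice, an outbred stock. Astrocytes came from the ventral midbrain (VM) or the cortex (Ctx) of pups at postnatal day 5, and neural progenitor cells (NPCs) came from the cortex of embryos at embryonic day 12. The library called VM astrocyte here received no virus, as did Ctx astrocyte and Ctx NPC. The library titled C is called VM C and stands for mock virus. The library titled NF is called VM NF and stands for Nurr1 and Foxa2, delivered by lentiviruses from a CMV promoter that is not restricted to astrocytes. Each condition had 1 library, so no difference between conditions has a replicate check.

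Class I molecules are built by nearly every nucleated cell from a heavy chain and beta-2-microglobulin, and they carry peptides that the TAP transporter pumps into the endoplasmic reticulum. Class II molecules are alpha-beta pairs that are held by the invariant chain until peptide is loaded in endosomes with the help of H2-DM, and their transcription depends on the coactivator CIITA. In the brain, class II is known mainly from microglia and other myeloid cells, and astrocytes in culture are known to make it after interferon gamma.

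The treatment entries of the transduced libraries contradict their titles, and the titles were followed. Nr4a2, the gene of Nurr1, had 53 reads in VM C and 183 in VM NF, and Foxa2 had 15 and 216 reads, an order that goes with the titles. VM astrocyte, without virus, had 81 reads of Nr4a2 and 68 of Foxa2, above VM C, so VM NF was 1.24 and 1.73 above it on the log2 scale and part of the gap between VM NF and VM C lay in low values of VM C. With the entries instead, every difference between VM NF and VM C below would change its sign. VM C against VM astrocyte would then stand for Nurr1 and Foxa2 against no virus, and VM NF against VM astrocyte for mock virus against no virus. Library totals lay between 20010818 and 22554835 reads, so 3 reads, the smallest count taken as measurable, made a CPM (the count scaled to library total) of 0.133 to 0.150. All 5 libraries held reads of the astrocyte marker Gfap, from 4316 in VM NF to 122531 in Ctx NPC. The 12 summed astrocyte markers were highest in Ctx NPC, at a CPM of 11866. They were at 5009 in Ctx astrocyte and 1974 to 2289 in the VM libraries. Summed neural progenitor markers had a CPM of 6221 in Ctx NPC and 8988 in Ctx astrocyte. Of these 8 genes, 4 were called higher (at least 2-fold) in Ctx NPC and 1 lower. The names astrocyte and NPC used here are those of the labels. Summed oligodendrocyte markers were also highest in Ctx NPC, at a CPM of 7028 against 213 to 400 in the others. Microglial markers were summed over 19 genes and had 571 reads in Ctx NPC, 4021 in Ctx astrocyte, 10634 in VM astrocyte, 46152 in VM C and 7530 in VM NF. In bulk RNA, fewer cells of a type and less RNA per cell cannot be told apart.

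Of the members, 7 lie together on chromosome 17 of GRCm38, from the start of H2-K1 at 33996012 to the end of H2-Eb1 at 34316674. B2m lies on chromosome 2 from 122147687 to 122153082, and Ciita lies on chromosome 16 from 10480014 to 10531064. The promoters of 4 members are shown because they set the class II arrangement beside the class I one. Each is the 160 bases before the RefSeq gene start (GRCm38.p6), written 5′ to 3′ on the strand of the gene, with matches to the searched letters in capitals.
H2-Aa (chr17:34287824-34287983, minus strand): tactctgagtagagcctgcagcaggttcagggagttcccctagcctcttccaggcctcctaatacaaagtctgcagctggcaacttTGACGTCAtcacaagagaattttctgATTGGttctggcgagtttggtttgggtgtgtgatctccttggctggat
H2-Eb1 (chr17:34305707-34305866, plus strand): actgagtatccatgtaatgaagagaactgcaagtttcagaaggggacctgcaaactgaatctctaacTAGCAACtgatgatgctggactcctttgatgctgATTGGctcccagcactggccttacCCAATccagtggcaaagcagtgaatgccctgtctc
H2-DMb1 (chr17:34153031-34153190, plus strand): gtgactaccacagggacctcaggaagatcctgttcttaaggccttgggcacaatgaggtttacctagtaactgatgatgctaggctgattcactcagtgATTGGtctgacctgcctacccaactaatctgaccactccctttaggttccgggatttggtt
B2m (chr2:122147527-122147686, plus strand): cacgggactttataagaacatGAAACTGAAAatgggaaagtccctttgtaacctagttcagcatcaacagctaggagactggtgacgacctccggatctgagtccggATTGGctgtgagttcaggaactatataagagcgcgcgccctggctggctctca
The letters searched, on both strands, were ATTGG (the NF-Y or CCAAT box), TAGCAAC (core of the X box bound by the RFX complex), TGACGTCA (the CRE), GAAA followed after any 2 bases by a further GAAA (core of the interferon response element) and TTCNNNGAA (the gamma-activated site). ATTGG stood in 6 of the 7 members that have a 300-base window around a start, H2-DMa being the exception, and in 37.4% of all 32851 windows. The 160 bases before the start used for H2-DMa were 34122672 to 34122831, inside its gene span of 34119693 to 34139101. Those of H2-K1 also lay inside its span. Other starts of these genes were not searched, so the lack of matches in H2-DMa holds for this window only. TAGCAAC was matched in H2-Eb1 only among the 7 and in 3.66% of windows. TGACGTCA was matched in H2-Aa only and in 1.79% of windows. The paired GAAA was matched in B2m only and in 3.44% of windows. TTCNNNGAA was matched in none of the 7 and in 8.3% of windows. Exact letters alone were counted, so a box with a changed base is not among the matches, and a missing match does not show a missing box. These matches describe letters in a window and say nothing of binding in these cells.

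The class I members were abundant in all 4 astrocyte libraries. B2m, the light chain of every class I molecule, had 3124 reads in Ctx NPC, 29848 in Ctx astrocyte, 32678 in VM astrocyte, 42775 in VM C and 29081 in VM NF. Its level per transcript length (FPKM) was 181 in Ctx NPC and 1615 to 2200 in the astrocyte libraries, where it stood above at least 99.93% of all transcripts. H2-K1, a classical class I heavy chain, had 1898, 11096, 11524, 11920 and 9926 reads in the same order of libraries. The FPKM of H2-K1 was 57.3 in Ctx NPC and 295 to 327 in the others. Tap1, a subunit of the peptide transporter, had 644, 2273, 2410, 1678 and 2353 reads, with an FPKM of 10.9 in Ctx NPC and 25.1 to 39.1 elsewhere. All 3 were lowest in Ctx NPC, and VM C was highest for B2m but lowest among astrocyte libraries for Tap1. ICR mice need not carry the H2 alleles of the reference genome, and H2-K1 is nearly identical over long stretches to other heavy chains, so some reads of H2 genes may be lost or split in mapping, and that share was not measured. The ratio of B2m to H2-K1 FPKM was 6.89 in VM C, 5.16 to 5.62 in the other astrocyte libraries and 3.16 in Ctx NPC.

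The class II members were low in every library. H2-DMa, a chain of the H2-DM peptide exchanger, was the steadiest, with 210, 208, 185, 223 and 147 reads in Ctx NPC, Ctx astrocyte, VM astrocyte, VM C and VM NF, and an FPKM between 4.34 and 6.31. H2-Ab1, the beta chain of the I-A molecule, had 117, 287, 286, 62 and 293 reads, a CPM of 5.85, 13.4, 13.4, 2.75 and 14.4. Its FPKM was 2.29 in VM C against 11.2 in VM astrocyte. Its levels in VM NF, VM astrocyte and Ctx astrocyte did not differ beyond counting error, Ctx NPC lay below them and VM C was lowest, while VM C was highest for B2m. H2-Eb1, the beta chain of I-E, had 68, 55, 42, 31 and 45 reads. No library differed from its neighbour in the order of levels beyond counting error. The extremes did, with CPM intervals of 2.64 to 4.31 in Ctx NPC and 0.93 to 1.95 in VM C. H2-DMb1, the partner of H2-DMa, had 16, 30, 33, 60 and 28 reads and was highest in VM C. Cd74, the invariant chain, had 17, 5, 20, 27 and 15 reads, an FPKM of 0.164 to 0.841 that stood above only 32.3% to 39.2% of all transcripts. Professional antigen-presenting cells are known for strong Cd74 expression.

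Reads of H2-Aa and Ciita were above the floor in Ctx NPC only. H2-Aa, the alpha chain of I-A and partner of H2-Ab1, had 45 reads there and 1, 2, 3 and 0 reads in Ctx astrocyte, VM astrocyte, VM C and VM NF. Ciita, the class II coactivator, had 52 reads in Ctx NPC and 1, 0, 3 and 1 in the same order. Expression of H2-Aa and Ciita was therefore not detectable at this depth in the astrocyte libraries, and the I-A alpha chain and beta chain did not go together across libraries. Ctx NPC was also the library with the fewest microglial marker reads, where 12 of the 19 markers were at or under 3 reads and 3 were at 0. B cell markers summed to 7 reads in Ctx NPC and 2 to 12 in the astrocyte libraries, and T cell markers summed to 0 and to 3 to 39. Markers of dendritic cells summed to 190 reads in Ctx NPC and to 136 to 191 in the astrocyte libraries, but 187 of the 190 were of 1 gene, Zbtb46, and 6 of the 7 markers were at or under 3 reads in Ctx NPC, 5 of them at 0. The part of any of these cells in the H2-Aa and Ciita reads was not tested.

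**Figure D1:**
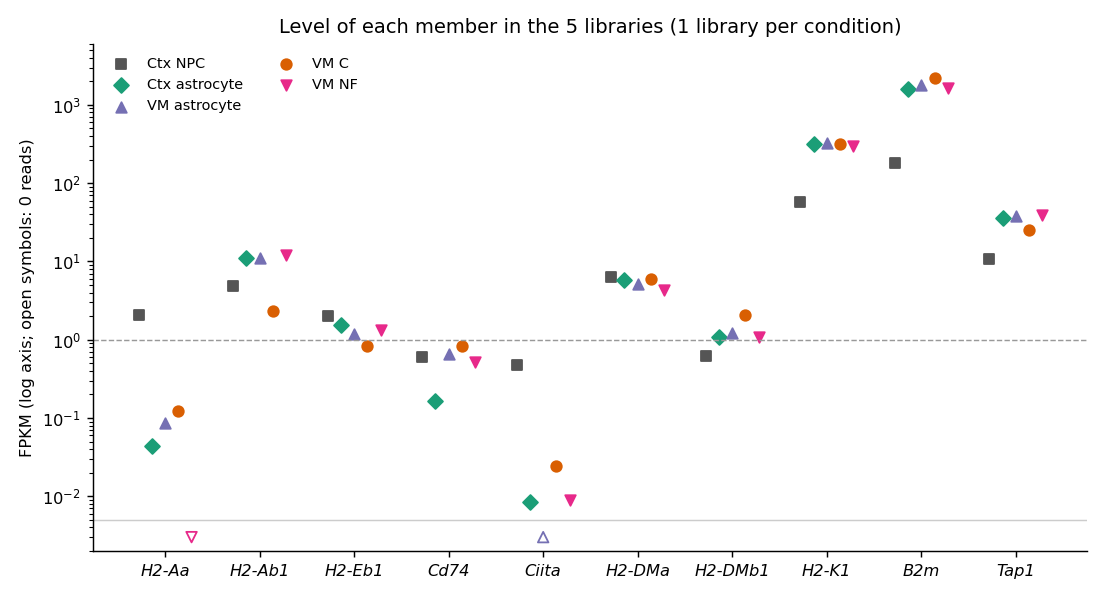
FPKM (log axis) of the 10 members in the 5 libraries, 1 point per library, with open symbols for 0 reads and a dashed line at an FPKM of 1. B2m, H2-K1 and Tap1 sit above all class II members in every library, H2-Ab1 is at 2.29 in VM C, and H2-Aa passes 1 in Ctx NPC only.

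The summed class II members had 525 reads in Ctx NPC, 587 in Ctx astrocyte, 568 in VM astrocyte, 409 in VM C and 529 in VM NF. The summed class I members had 5666, 43217, 46612, 56373 and 41360 reads. There were thus 10.8 class I reads per class II read in Ctx NPC, 73.6 to 82.1 in Ctx astrocyte, VM astrocyte and VM NF, and 138 in VM C. These are ratios of reads, not per length, and serve only to set the libraries beside each other. The summed class II reads per microglial marker read were 0.919 in Ctx NPC, 0.146 in Ctx astrocyte and 0.0534 in VM astrocyte. They were 0.0703 in VM NF and 0.00886 in VM C. The class II sum thus did not follow the microglial markers, but its members differed. H2-Ab1 was lowest in VM C, with 62 reads against 286 in VM astrocyte and 293 in VM NF. Cd74, H2-DMa and H2-DMb1 together were highest in VM C, at a CPM of 13.7 against 9.34 to 12.1 in the others. The part of microglia in the class II reads was not tested. None of the 6 defining microglial genes (Aif1, Csf1r, Cx3cr1, Itgam, P2ry12 and Tmem119) was at 0 in any library. In Ctx NPC, though, 2 of them were at or under 3 reads and the 6 summed to 25 reads. Their summed CPM was 1.25 in Ctx NPC, 33.0 in Ctx astrocyte, 127 in VM astrocyte, 524 in VM C and 92.4 in VM NF.

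**Figure D2:**
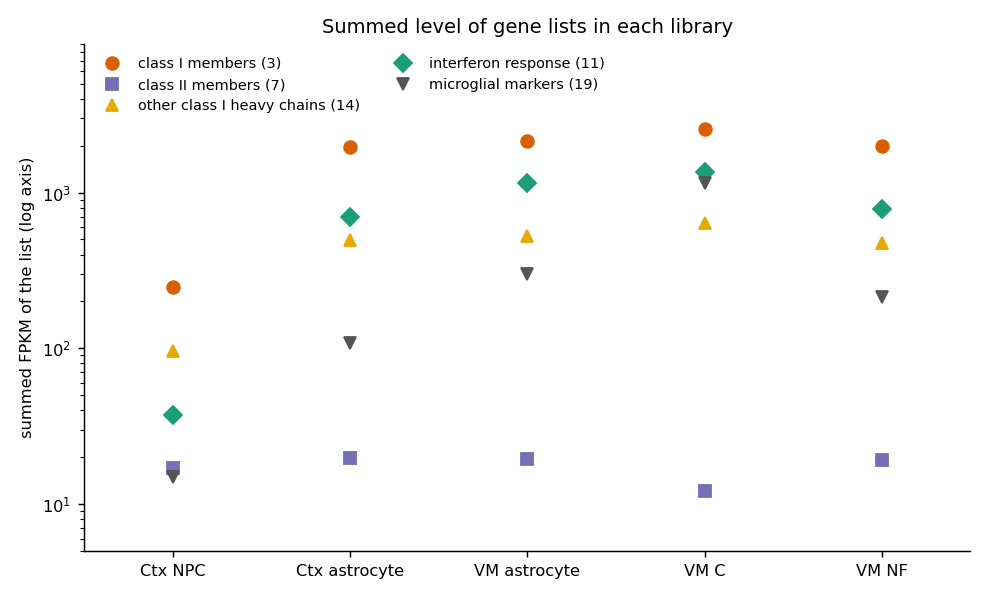
Summed FPKM (log axis) of 5 gene lists in each library, with the number of genes of each list in the legend. Microglial markers run from 15.0 in Ctx NPC to 1158 in VM C. The summed class II members stay between 12.1 and 19.8 and are lowest in VM C, where H2-Ab1 is lowest.

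The comparison of VM NF with VM C asks what the Nurr1 and Foxa2 viruses changed beside mock virus. Scaled to library totals, H2-Ab1 was 5.21-fold higher in VM NF, a log2 ratio of 2.38 with an exact 95% interval of 1.99 to 2.81. It was the 1 member called higher, where a call is a 2-fold difference with an FPKM above 1 in at least 1 of the 2 libraries. No member was called lower. Of all 12701 transcripts tested, 9.53% were called higher and 9.73% lower. Intervals here reflect the number of reads alone, so how far separate cultures would vary is not in them. The median log2 ratio of the 8 members above the floor was -0.26, against -0.02 over all transcripts. Tap1 had a log2 ratio of 0.64 (0.55 to 0.73), B2m of -0.41 (-0.43 to -0.39), H2-K1 of -0.11 (-0.15 to -0.08), H2-DMa of -0.45 (-0.76 to -0.15) and H2-DMb1 of -0.94 (-1.65 to -0.28), all under 2-fold. H2-Eb1, at 0.68 (-0.01 to 1.40), and Cd74, at -0.68 (-1.72 to 0.26), had intervals that include 0. The microglial markers moved with this contrast in the opposite direction to H2-Ab1, with 16 of the 17 that passed the filter called lower in VM NF. Oligodendrocyte markers moved the same way, with 4 of 5 called lower in VM NF, and also 4 of 5 called higher in VM C against VM astrocyte. The part of either cell type in the result was not tested.

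The library without virus gives a reference level for both. In VM C against VM astrocyte, H2-Ab1 was 4.85-fold lower (log2 ratio -2.28, interval -2.71 to -1.89). It was the only member called lower, in a comparison where 8.48% of 12703 transcripts were. Tap1 was also below VM astrocyte in VM C, at -0.60 (-0.70 to -0.51). B2m, at 0.31 (0.29 to 0.33), and H2-DMb1, at 0.77 (0.14 to 1.44), lay above it, and H2-K1 stood at -0.03. Of 17 microglial markers that passed the filter, 16 were called higher in VM C, beside 7.3% of all transcripts. In VM NF against VM astrocyte no member was called, where 0.668% of 12428 transcripts were called lower and 0.322% higher, 0.99% in all. Log2 ratios of the 8 members above the floor ran from -0.34 for Cd74 to 0.16 for H2-Eb1, and that of H2-Ab1 was 0.10. These 3 comparisons share libraries, so their values are only set side by side.

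In Ctx astrocyte against VM astrocyte, which asks how the regions differ, no member was called, beside 9.89% of 12553 transcripts called lower and 4.49% called higher, 14.4% in all. H2-Ab1 had 287 and 286 reads, H2-K1 a log2 ratio of -0.06, B2m of -0.14 and Tap1 of -0.09. Cd74 had the largest difference among the 8 members above the floor, with 5 reads in Ctx astrocyte against 20 in VM astrocyte (log2 ratio -1.91, interval -3.78 to -0.55), and its FPKM was under 1 in both. Of the 15 microglial markers that passed the filter, 14 were called lower in Ctx astrocyte.

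**Figure D3:**
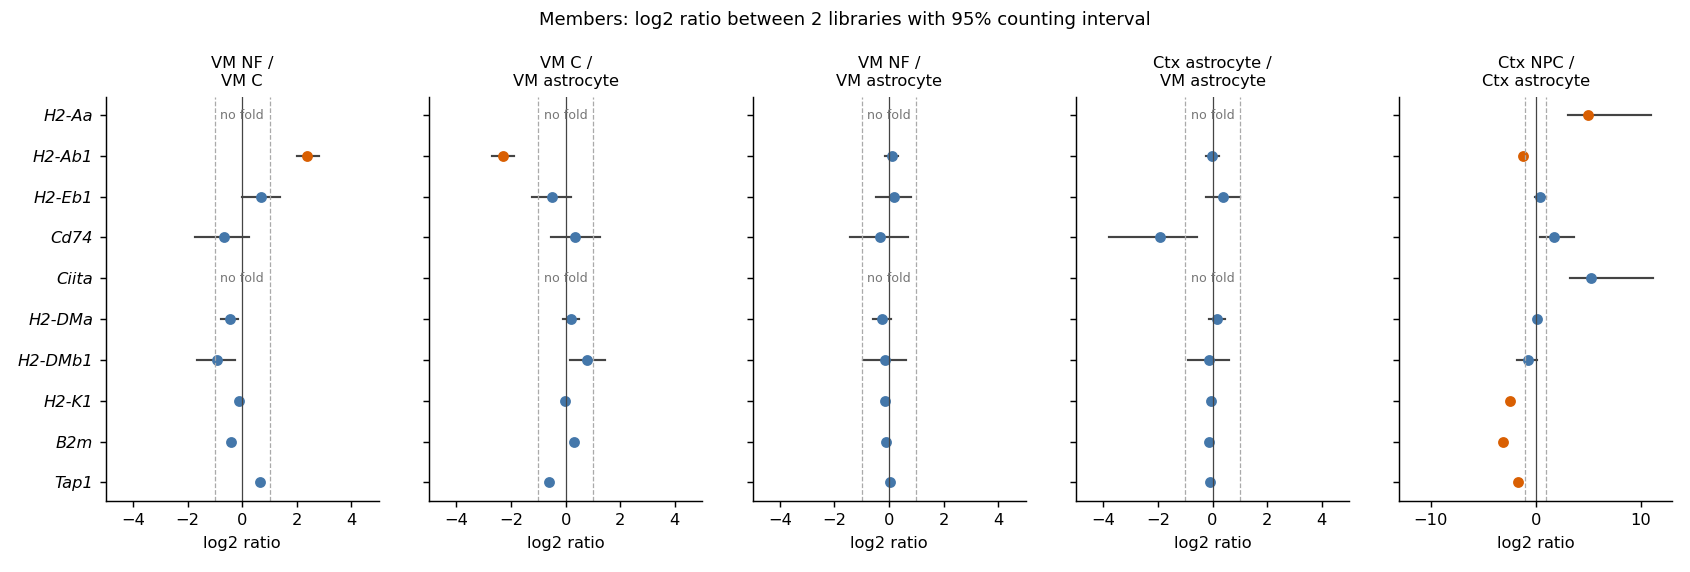
Log2 ratio of each member in the 5 comparisons of library pairs, scaled to library totals, with 95% counting intervals as horizontal lines. Orange points were called, blue points were not, dashed lines mark 2-fold, and the x axis of Ctx NPC against Ctx astrocyte is wider than the others. H2-Ab1 is at 2.38 in VM NF against VM C and at -2.28 in VM C against VM astrocyte, while B2m, H2-K1 and Tap1 are at -3.16, -2.45 and -1.72 in Ctx NPC against Ctx astrocyte.

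Of the 5 comparisons, that of Ctx NPC with Ctx astrocyte held the most calls. B2m was 8.92-fold lower in Ctx NPC (log2 ratio -3.16, interval -3.21 to -3.10), H2-K1 5.46-fold lower (-2.45, -2.52 to -2.38) and Tap1 3.29-fold lower (-1.72, -1.85 to -1.59). H2-Ab1 was lower as well, at -1.19 (-1.52 to -0.88). These 4 members were called lower, where 17.9% of 12623 transcripts were. H2-Aa, with 45 reads against 1, was the 1 member called higher, where 20.1% were (38% in either direction), and its ratio has a counting interval from 8.22 to 1946. Ciita, with 52 reads against 1 and a ratio interval from 9.57 to 2242, stayed under an FPKM of 1 and was not called. Cd74 was at 1.76 (0.37 to 3.66) on 17 against 5 reads, also under an FPKM of 1. H2-Eb1 at 0.40, H2-DMa at 0.11 and H2-DMb1 at -0.79 had intervals that include 0. The median of all transcripts was 0.19 in this comparison, and edgeR's TMM scaling shifted it by -0.18, which put B2m at -3.34, H2-K1 at -2.63 and Tap1 at -1.90 and turned H2-DMa to -0.07. All 12 microglial markers that passed the filter were called lower in Ctx NPC, and their part in these differences was not tested.

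Other genes of the pathway were read from a list ordered by role. Calls in Ctx NPC against Ctx astrocyte stand beside 17.9% of all transcripts called lower and 20.1% called higher. Among class I heavy chains besides H2-K1, 8 of the 9 that passed the filter were called lower in Ctx NPC than in Ctx astrocyte, such as the classical H2-D1 (log2 ratio -2.60) and the nonclassical H2-T23 (-4.67). Cd1d1, which presents lipids, was the exception and was called higher at 1.08. Of 7 genes of peptide loading, Tapbp (tapasin, -1.50) and Tap2 (the other TAP subunit, -1.42) were called lower and none higher. Of 5 immunoproteasome genes, the catalytic subunits Psmb8 (-2.84) and Psmb9 (-2.55) were called lower, while none of 3 constitutive counterparts was called. All 6 endosomal genes of the class II route, which are 5 proteases and the thiol reductase Ifi30, were called lower, led by Ctss (cathepsin S), with 1 read against 468. Of the 7 genes of class II transcription other than Ciita, Nfyc, a subunit of NF-Y (1.91), and Rfxank, a subunit of RFX (1.16), were called higher. All 11 interferon response genes were called lower. Class II chains and editors besides the members stayed low, with at most 17 reads of H2-Ob (in VM C) and at most 8 of H2-DMb2, a near-identical copy of H2-DMb1. Ifng itself had 0 reads in 4 libraries and 1 read in VM NF.

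Between VM NF and VM C fewer genes of these roles were called, as were fewer of all transcripts (19.3% in either direction against 38%). No gene of peptide loading was called, with a median of -0.06 over the 7. Psmb10 was the only immunoproteasome gene called lower (-1.22), and H2-T24 the only heavy chain, at -2.40, with 39 against 230 reads. Ctss (-2.33), Ctsl (-1.26) and Ctsb (-1.19) were called lower among the 5 endosomal proteases, and Ifi30 was at -0.55, so the protease that trims the invariant chain stood lower in VM NF while H2-Ab1 stood higher. Cathepsin S is also known to be abundant in microglia. Irf1, an interferon-induced activator of class I genes, was the only gene of class I transcription called, and it was higher in VM NF at 1.15. Its reads were 415 in Ctx NPC, 1692 in Ctx astrocyte, 1982 in VM astrocyte, 1029 in VM C and 2056 in VM NF. In CPM this is the order Ctx NPC, VM C, Ctx astrocyte, VM astrocyte and VM NF, which is also that of Tap1. The levels of Tap1 in VM astrocyte and VM NF did not differ beyond counting error. B2m and H2-K1 did not have this order, B2m being highest in VM C and H2-K1 in VM astrocyte. The part of Irf1 in these levels was not tested. Of 11 interferon response genes, 6 were called lower. In class II transcription 1 of 7 was called, Nfyc, which was lower in VM NF at -1.18 with 156 against 392 reads. Against VM astrocyte, none of these roles held a call in VM NF, where only 0.99% of all transcripts did.

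**Figure D4:**
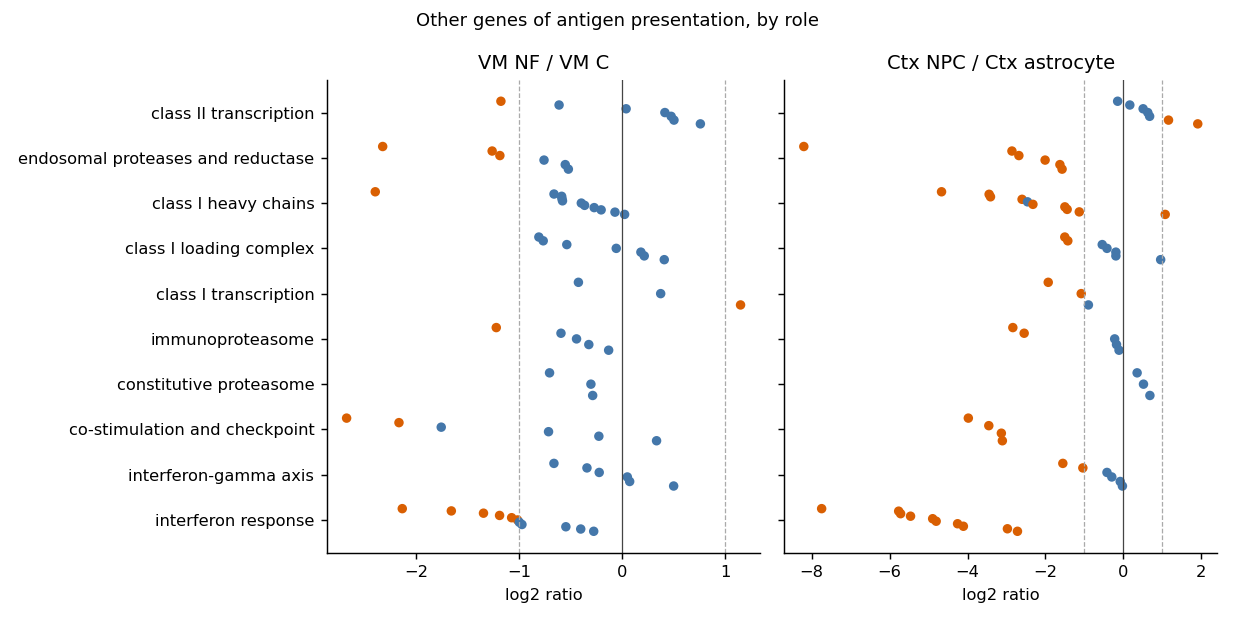
Log2 ratios of other genes of antigen presentation grouped by role in 2 pairs of libraries with x axes of their own, 1 point per gene, orange where called and blue where not, with dashed lines at 2-fold. Genes at 0 reads in either library of a pair, or at most 3 in both, are not drawn. The class I heavy chains and interferon response genes lie mostly below 0 in Ctx NPC against Ctx astrocyte, where 8 of 9 and 11 of 11 were called lower.

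The members' patterns over the 5 libraries were set beside those of 11505 transcripts by the root mean square difference of centred log2 values, as a description. Within the set, H2-Aa and Ciita were left out because they were not above 3 reads in all 5 libraries. Of the other members the closest pair was H2-K1 and B2m (0.373), then H2-K1 and Tap1 (0.408) and the class II members H2-Eb1 and H2-DMa (0.433). H2-Ab1 and H2-Eb1, beta chains of the 2 class II molecules, were farther apart (0.856), and H2-Ab1 and Cd74 farther still (1.51). Outside the set, the transcripts most like B2m were Cda (0.0489), Prss23 (0.0961), Cpne8 (0.126), Psmb8 (0.139) and Unc5b (0.148). Among those most like Cd74 were the mitotic genes Nuf2 (0.0754), Smc2 (0.112) and Kif4 (0.118) and the DNA repair gene Bard1 (0.130), a likeness that rests on 5 to 27 Cd74 reads per library. Over 5 libraries, many transcripts share a pattern closely.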

How the data were processed

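RNA-seq of cultured mouse astrocytes and neural progenitor cells was read from 5 tables deposited by the authors, 1 per library. The authors used a quality score of 20 to trim reads, looked at mismatches by Bowtie, aligned by STAR and counted with HTSeq-count on RefSeq Release 105, by the paper on GRCm38/mm10, while the submitters' processing notes name mm9. How reads matching several genes were assigned is not given in the sources used here. The deposited read counts are whole numbers per transcript without normalization. The FPKM values that the authors gave are counts per transcript length and library total, and recomputing them agreed within a relative difference of 4.09e-05.

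Totals were 20010818 to 22554835 reads, with the total row of each table left out. Symbols came from RefSeq accessions for 19997 of 20178 transcripts. Counts were scaled to library totals, 0.5 reads were added and log2 ratios taken. A call is 2-fold with FPKM above 1 in at least 1 library. No fold is given where both counts were at most 3 reads or either was 0. Ratios have exact (Clopper-Pearson) 95% intervals, which hold counting error alone because they use only the read counts of the pair of libraries. PCR copies of 1 molecule can be counted as several reads, so even counting error may be understated. With 1 library per condition no test was possible. The calculation was tested on simulated data with changes placed in transcripts of high counts only. Counts as low as those of most class II members were thus not covered.

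The members and gene lists were chosen with earlier results of these data known. Besides the members and the transduced genes, pathway genes were named within each role by the size of the difference or the highest FPKM, and like patterns by the 5 nearest transcripts with a CPM of at least 10, and some genes that these rules name are not reported here. The listed genes H2-Ea, H2-L, H2-M2, Mx1, Mx2 and Cd68 were not analysed here. Promoters are from RefSeq on GRCm38.p6, where 7 of the 10 members had a window. Alternatives were edgeR's TMM, DESeq2's size factors, upper-quartile scaling, 5 reads added, other filters, the treatment entries in place of the titles and other reference libraries. Tools were edgeR 4.0.16 and DESeq2 1.42.0 in R 4.3.3, and scipy 1.17.1, matplotlib 3.10.9, pandas 2.3.3 and numpy 2.4.6 in Python 3.11.15.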

Additional observations from a re-analysis of the deposited data

How the results depend on the processing

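No paired analysis was possible because each condition has 1 library, and for the same reason no library could be left out. Recomputed were the counts of called members and the medians over the members above the floor. Of these 124 values, 112 were kept, which for a count means near the reported one and not always equal to it. A median was kept if it lay between the medians of the members' interval limits. With a 2.6-fold cutoff, 3 in place of 4 members were called lower in Ctx NPC against Ctx astrocyte, as H2-Ab1 dropped out, and this was taken as kept. Medians without the filter could not change, because they are taken over the same members. In VM NF against VM C, the treatment entries in place of the titles gave 1 member called lower, 0 called higher and a median of 0.26, by construction. The median was also 0.26 with a CPM of at least 10 in place of the FPKM filter, and that of VM C against VM astrocyte was then -0.32, since fewer members remain. With VM astrocyte in place of VM C as the reference, a choice made after seeing the data, 0 members were called higher in VM NF. In Ctx astrocyte against VM astrocyte, 1 member (Cd74) was lower without the filter. In Ctx NPC against Ctx astrocyte, 3 members (H2-Aa, Ciita and Cd74) were higher without the filter and 0 with an FPKM above 1 in both libraries or a CPM of at least 10, where the median was -1.46 and -1.72, since the low class II members drop out. Of 42 member ratios, 39 kept their sign under 3 other scalings and 5 added reads. The exceptions, all near 0, were H2-DMa in Ctx NPC against Ctx astrocyte (-0.07 to -0.05), H2-Ab1 in Ctx astrocyte against VM astrocyte and H2-K1 in VM C against VM astrocyte (0.01 with DESeq2's size factors). Only 32 of the 42 stayed within their counting interval under all 4 settings, and those that left it were of class I members. B2m in VM NF against VM C was at -0.37 with TMM, outside its interval of -0.43 to -0.39. The narrow class I intervals thus do not cover the choice of scaling. The counts of H2-Aa, Ciita and Cd74 were too low in the astrocyte libraries for differences under several-fold to be detectable.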

Other observations

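Co-stimulatory and checkpoint genes, which act beside MHC molecules on T cells, differed among themselves. Cd86, a ligand of CD28, had 0 reads in Ctx NPC, 12 in Ctx astrocyte, 49 in VM astrocyte, 279 in VM C and 39 in VM NF. Cd274, the checkpoint ligand PD-L1, had 24, 413, 763, 4724 and 948 reads in the same order. VM C was the highest library for both. Icosl, the ligand of ICOS, had 19, 228, 192, 147 and 167 reads and was lowest among the astrocyte libraries in VM C. Cd80, another ligand of CD28, had 13, 126, 479, 626 and 482 reads. In VM NF against VM C, 2 of the 5 that passed the filter were called lower, Cd86 at a log2 ratio of -2.68 and Cd274 at -2.17, beside 9.73% of all transcripts. In Ctx NPC against Ctx astrocyte, 4 of 4 were called lower, beside 17.9% of all transcripts. The part of microglia in these values was not tested.

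The genes of the interferon gamma axis held fewer calls than the interferon response genes. None of 6 was called in VM NF against VM C, beside 19.3% of all transcripts called in either direction. In Ctx NPC against Ctx astrocyte 2 of 6 were called lower, beside 17.9% of all transcripts. Ifngr1 (-1.04), a receptor chain, was among them. Nlrc5, the class I counterpart of Ciita, had 186 reads in Ctx NPC, 371 in Ctx astrocyte, 447 in VM astrocyte, 687 in VM C and 461 in VM NF. It was below 2-fold in Ctx NPC against Ctx astrocyte at -0.90, where H2-K1 was at -2.45.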
